A study of Mus musculus with 32 samples.

Results

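The transcripts described here are the 249, of 55419 in the deposited table, that were higher in mouse osteosarcoma than in clear cell sarcoma, synovial sarcoma and control tissue by class median. A transcript was taken when its median over the 7 osteosarcomas was at least 5 RPKM (reads per kilobase of transcript, scaled to the depth of the library in M reads, M for mega) and when that median plus 1 was at least 4 times each of the other 3 class medians plus 1. The 249 were thus chosen by the RPKM values of all 32 libraries, and their height in osteosarcoma is a description with no test. The table names transcripts by UCSC identifiers without gene names, so none is assigned to a gene here, only 4 identifiers are printed and the rest are told apart by length. For the same reason bone markers, and Rb1 and p53 themselves, could not be looked up to check the tumour labels.

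Osteosarcoma is a malignant tumour whose cells lay down bone matrix, and loss of the tumour suppressors Rb1 and p53 in bone-forming cells or their precursors is a common way to model it in mice. Cre recombinase driven by type I collagen (Col1) sequences is active mainly in osteoblasts, the cells that make bone. Cre driven by the Prx1 limb enhancer acts earlier, in the mesenchyme that gives rise to limb bone, cartilage and connective tissue.

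The osteosarcoma titles name Rb1 and p53 with Col1Cre in 4 libraries (numbers 22, 26, 27 and 31) and with Prx1Cre in 3 (numbers 28, 38 and 42). The 13 clear cell sarcomas carry EA1 in their titles and were started with Rosa26CreER (5), TATCre (4), Prx1CreERT2 (2) or Bmi1IRESCreERT2 (2). The 6 synovial sarcomas are titled Myf5-SSM2/PLUC, and the 6 controls are titled Chest (5) or Bone (1), with no genotype or tissue given for them. Age and strain are not in the labels, and neither is whether each library came from its own animal. Some titles share a number (TATCre N123, synovial sarcoma N37 and N39, and the controls Bone3 and Chest3), and a p-value here speaks of variation among libraries, which may in part be technical. The genotype, the Cre and the tumour type change together, so their parts in a difference cannot be told apart, and in bulk tissue fewer cells of a type cannot be told apart from less RNA per cell. Reads recovered from the steps of the RPKM values gave depths of 8.11 to 13.1 M per library, with 9.33 to 11.98 M in the osteosarcomas. A value of 0 is written as listed at 0.

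The separation by class median did not hold library by library. The median of the 249 transcripts was 19.3 RPKM in osteosarcoma (lowest 5.01, highest 5107), and 118 of them had a median listed at 0 in all 3 other classes. In 7 of the 249 every osteosarcoma was above every one of the 25 other libraries, where 0.131% of the 15230 transcripts tested over all libraries were so separated, a count that the choice itself bears on. Leaving out the osteosarcoma Prx1Cre 42, the number was 46, against 0.611% of those transcripts. In 82 of the 249, at least 1 library outside osteosarcoma reached the osteosarcoma median. Transcripts lay on both sides of the fold limit without a gap. The last one inside had 50.8 RPKM in osteosarcoma and 11.9 in the next class, a ratio of 4.03 after adding 1, and the first one outside had 39.97 and 9.30, a ratio of 3.98. At the level limit, the last one inside had 5.01 RPKM and the first one outside 4.71.

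**Figure D1:**
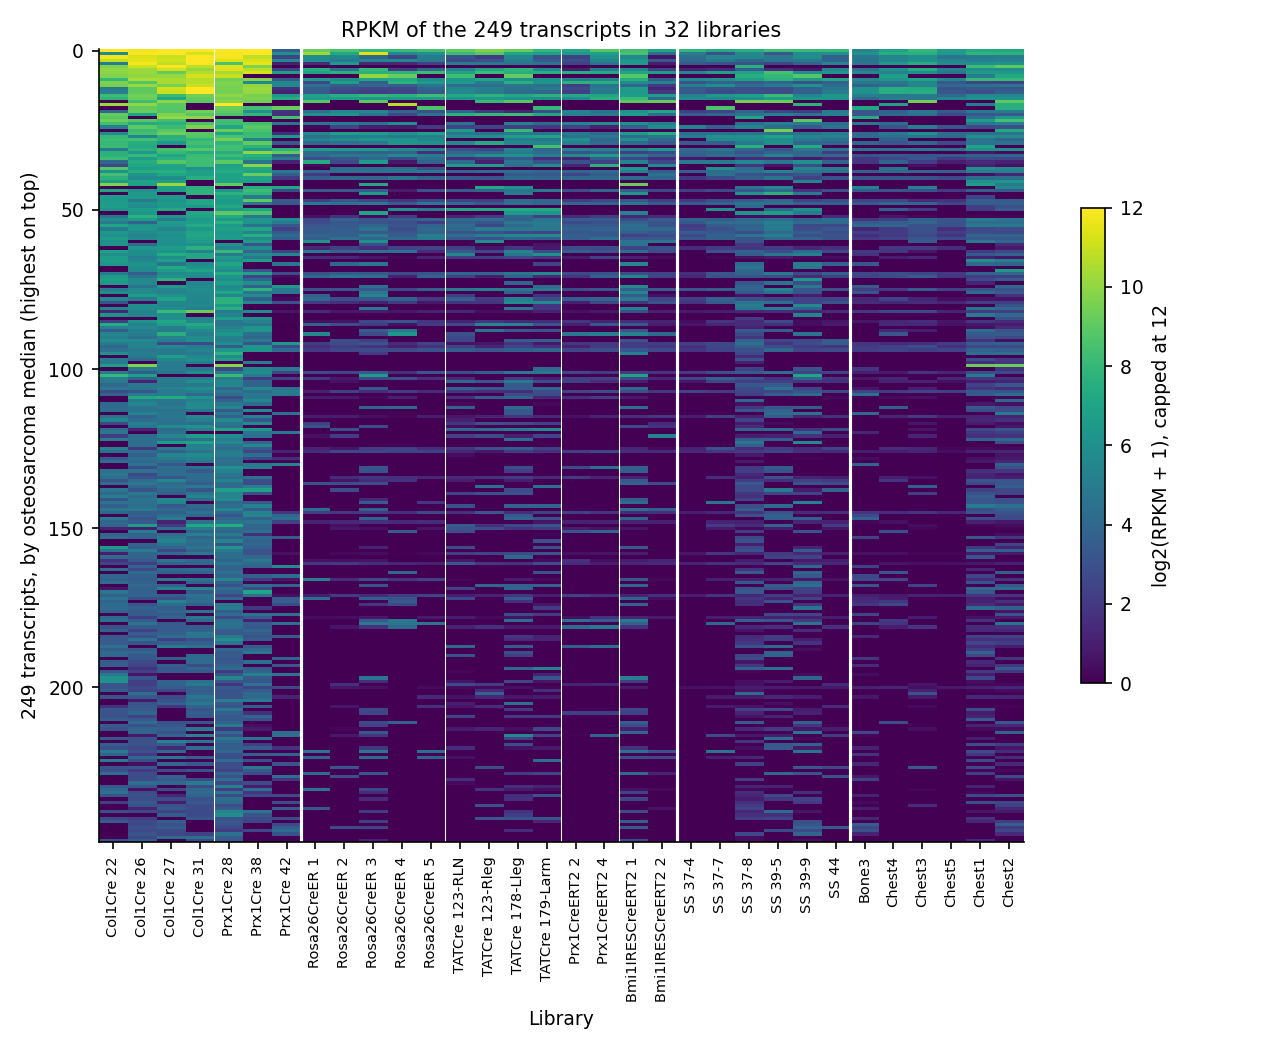
Each row is 1 of the 249 transcripts, ordered by its osteosarcoma median, and each column 1 of the 32 libraries in the order osteosarcoma, clear cell sarcoma, synovial sarcoma and control, with white lines between groups and colour for log2(RPKM + 1). The 6 osteosarcoma columns other than Prx1Cre 42 have medians of 3.98 to 4.90 over the rows, and the 25 columns of the other classes 0 to 2.06. The column of Prx1Cre 42, with 145 transcripts listed at 0, resembles the columns to its right.

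Many of the 249 had a short recovered length and rested on few reads. Lengths here are those implied by the deposited RPKM values. What they stand for is not stated, so they need not be full transcript lengths. The median recovered length of the 249 was 228 bases (from 2 to 5251), and 70 (28.1%) were under 100 bases, 11 of them under 10. Among the 15230 tested transcripts 10.5% were under 100 bases, and among the 8259 other transcripts with an osteosarcoma median of at least 5 RPKM 12.8% were. The same choice made for clear cell sarcoma, synovial sarcoma or the controls gave 265, 457 and 450 transcripts, of which 17.4%, 22.8% and 23.5% of those with a length were under 100 bases. These shares are given without a test. At a short recovered length each read is worth many RPKM. The 10 highest ratios of osteosarcoma to the next class ran from 84.6 to 1811. All belonged to transcripts with a recovered length of 2 to 27 bases and a median of 3 to 55 reads in osteosarcoma.

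The median osteosarcoma read number of the 249 was 31, and 87 of them (34.9%) were under 20 reads, against 9.44% of the 8259 others. The 92 transcripts with at least 100 reads had a median length of 1522 bases and ratios of up to 75.4, and 37 of the 249 had at least 1000 reads. Of the 92 transcripts, 9 had a library outside osteosarcoma at the osteosarcoma median, whereas 73 of the 157 with fewer reads did. In 32 of the 92 the 6 osteosarcomas without Prx1Cre 42 all stood above the other 25 libraries, and in 14 of the 157. Among the 15230 tested transcripts, at any read number, 0.611% did so. The choice and the split by reads both used these osteosarcoma values, and no share at equal reads was taken. The counts by reads are therefore a description.

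**Figure D2:**
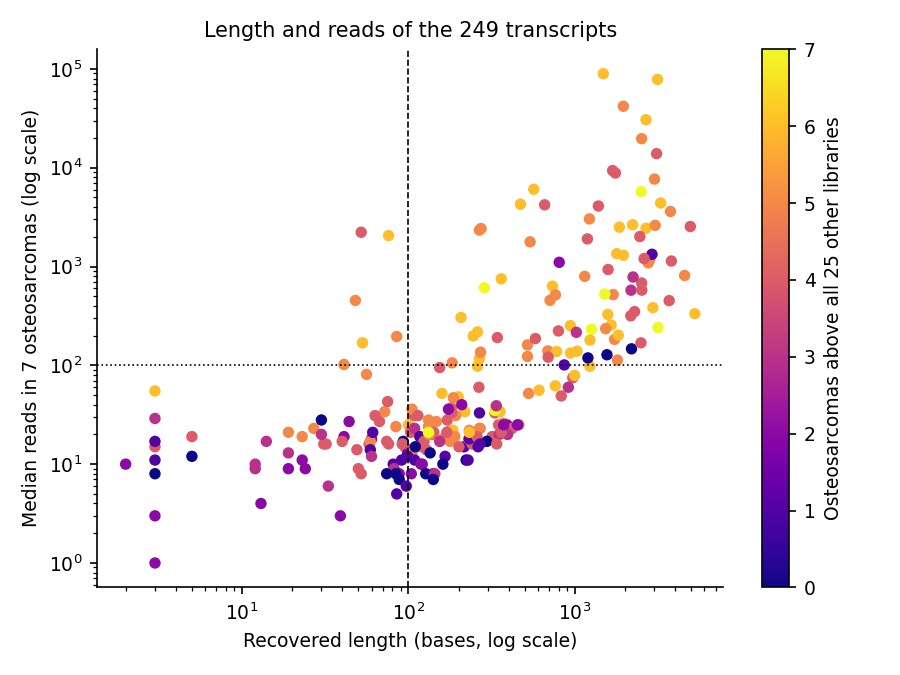
Each point is 1 of the 249 transcripts, by recovered length in bases and median reads in the 7 osteosarcomas, both on log scales, coloured by how many osteosarcomas lay above all 25 other libraries. The dashed line marks 100 bases, with 70 points to its left, and the dotted line 100 reads, with 92 points at or above it.

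Among transcripts of at least 100 bases with every osteosarcoma above every other library, uc008sch.2 had the largest ratio, 31.6. This transcript of 2503 bases had 301, 107, 200 and 316 RPKM in Col1Cre 22, 26, 27 and 31, and 191, 155 and 27.1 in Prx1Cre 28, 38 and 42. Prx1Cre 42 was the lowest of the 7 and still above the highest other library, the clear cell sarcoma Rosa26CreER 5, at 18.5. Its median was 5.07 RPKM in clear cell sarcoma (1.33 to 18.5), 5.07 in the controls (2.75 to 8.65) and 1.15 in synovial sarcoma (0.275 to 1.93). The value of Prx1Cre 42 rested on 730 reads and those of the other osteosarcomas on 2487 to 8022.

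Transcript uc012ael.1, of 1257 bases, was lower in level and listed at 0 in 20 of the 25 libraries outside osteosarcoma. It had 8.65, 19.8, 30.4 and 37.7 RPKM in Col1Cre 22, 26, 27 and 31, and 18.9, 5.57 and 1.70 in Prx1Cre 28, 38 and 42. Prx1Cre 42 was again the lowest, with 23 reads, and the other 6 had 75 to 480. It was listed at 0 in 12 of 13 clear cell sarcomas, 5 of 6 synovial sarcomas and 3 of 6 controls, and the highest value outside osteosarcoma was 0.744 RPKM, from 10 reads in Chest2. Against groups listed mostly at 0 no fold is given. The 7 fully separated transcripts, these included, were 132 to 3157 bases long with osteosarcoma medians of 7.83 to 209 RPKM, and in Prx1Cre 42 they had 1.70 to 564.

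The transcript with the largest ratio among those of at least 100 bases regardless of overlap was uc008nwt.1, of 3139 bases, at 75.4. It had 3386, 2674, 2061 and 4144 RPKM in Col1Cre 22, 26, 27 and 31, and 3701 and 1868 in Prx1Cre 28 and 38, but 4.32 in Prx1Cre 42. The value of Prx1Cre 42 lay below all 6 controls (23.9 to 58.1 RPKM) and all 6 synovial sarcomas (12.3 to 57.2), and within the range of the clear cell sarcomas (0.609 to 66.01). The 6 high osteosarcomas had 62823 to 139246 reads of it and Prx1Cre 42 had 146. This transcript alone held 13.2% to 30.3% of the reads of the 249 in those 6 tumours. The 10 best read of the 249 in each of them held 74.6% to 83.6%.

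Transcript uc007ush.1, of 2235 bases, was higher in the Col1Cre than in the Prx1Cre tumours by its values. It had 168, 37.6, 105 and 161 RPKM in Col1Cre 22, 26, 27 and 31, 24.9 and 24.3 in Prx1Cre 28 and 38, and was listed at 0 in Prx1Cre 42. All 4 Col1Cre libraries were above all 3 Prx1Cre libraries. The clear cell sarcomas overlapped the osteosarcomas here, with 43.2 and 39.3 RPKM in TATCre N123-Rleg and N178-Lleg, above all 3 Prx1Cre tumours and Col1Cre 26.

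**Figure D3:**
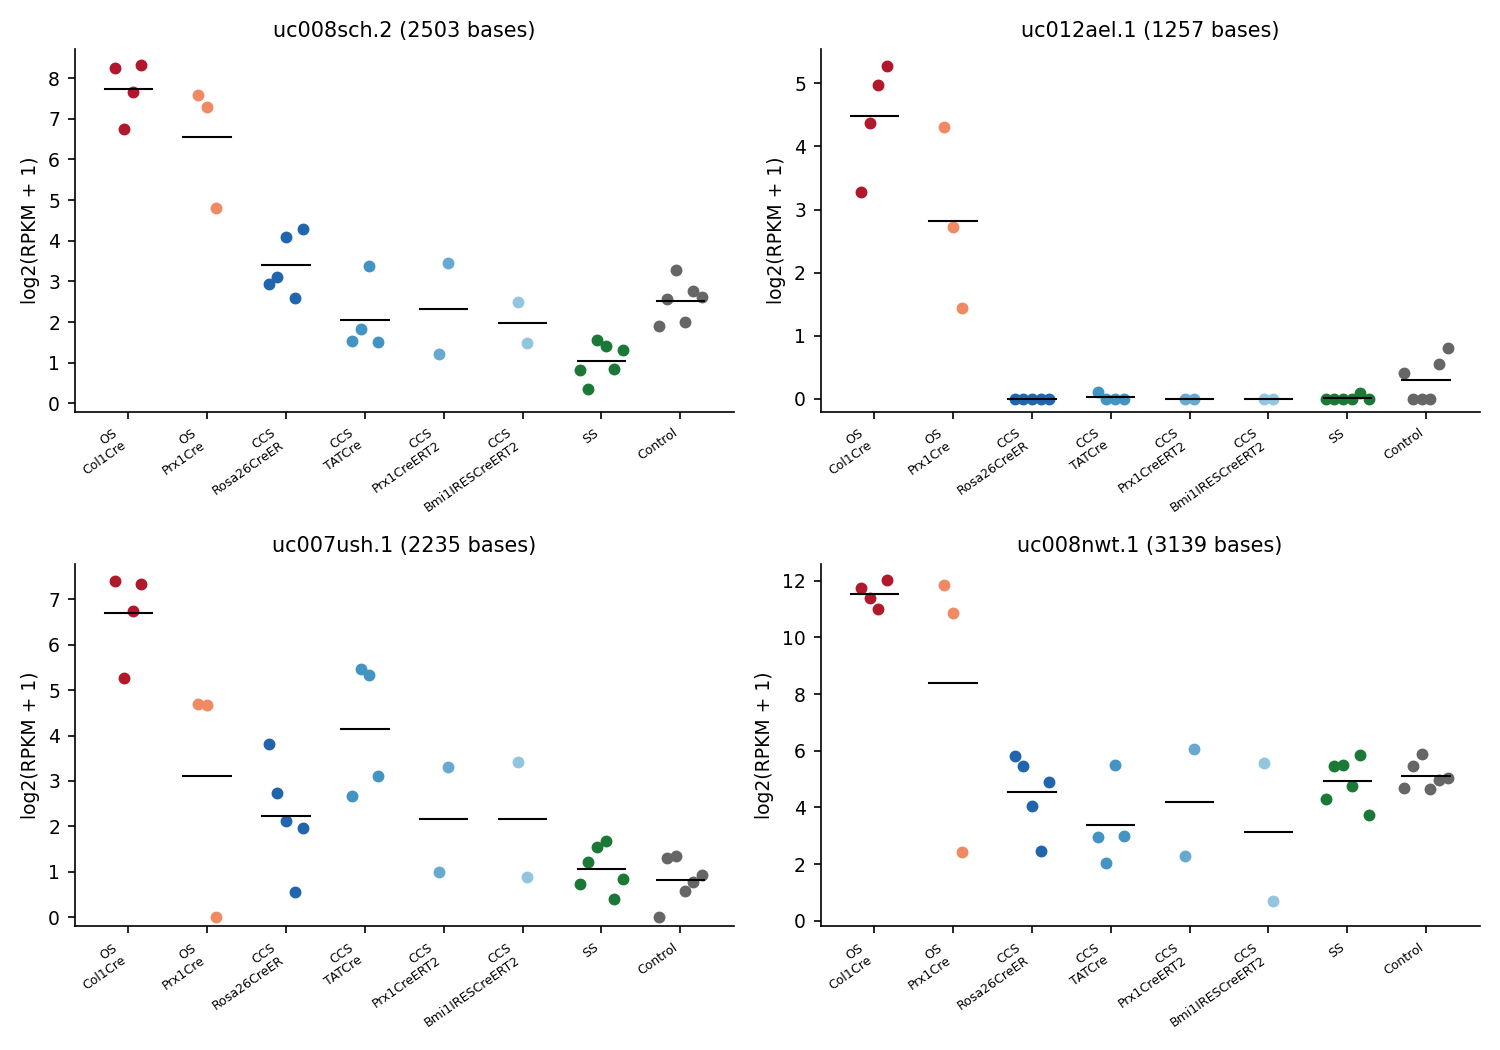
Each panel shows 1 transcript and each point 1 library as log2(RPKM + 1), in 8 groups (OS osteosarcoma, CCS clear cell sarcoma, SS synovial sarcoma), with a bar at the group mean. In uc008sch.2 and uc012ael.1 all 7 osteosarcomas lie above the other 25 libraries, whereas in uc007ush.1 and uc008nwt.1 the lowest Prx1Cre point, Prx1Cre 42, falls to or below the level of the other classes.

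The 249 transcripts as a group were high in 6 osteosarcomas and low in Prx1Cre 42. Their mean log2(RPKM + 1) was 3.94, 4.64, 4.73 and 4.73 in Col1Cre 22, 26, 27 and 31, and 5.37, 4.08 and 1.55 in Prx1Cre 28, 38 and 42. This gave 4.15 ± 1.24 (SD, n = 7) over all osteosarcomas and 4.58 ± 0.52 (n = 6) without Prx1Cre 42. The other libraries had 0.64 to 2.37 (n = 25), so Prx1Cre 42 lay within their range and the other 6 above it. In Prx1Cre 42, 145 of the 249 were listed at 0, compared with 7 to 58 in the other osteosarcomas and 48 to 189 elsewhere. Among the 8259 others with an osteosarcoma median of at least 5 RPKM, Prx1Cre 42 also listed the largest share at 0, 5.68%. That share was 3.16% in Prx1Cre 38 and 0.799% to 2.05% in the remaining osteosarcomas.

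The zeros of Prx1Cre 42 were not confined to transcripts with few reads. Reads expected in a library were taken from the median of the other osteosarcomas, never counting Prx1Cre 42, scaled to its depth. Over transcripts with 100 or more expected reads, Prx1Cre 42 had 34 of 95 listed at 0 (35.8%), and the other 6 had 8 of 559 values (1.43%). Where 20 to 50 reads were expected, the counts were 53 of 64 (82.8%) in Prx1Cre 42 and 80 of 368 (21.7%) in the others. Counts by expected reads were not made for transcripts outside the 249, so these are a description. Of the 92 transcripts with a median of at least 100 reads, 31 were listed at 0 in Prx1Cre 42, and their mean log2(RPKM + 1) was 2.24 there, against 5.11 to 6.96 for the rest of the osteosarcomas and 1.73 to 3.45 for libraries of other classes. The 249 held 0.192% of the recovered reads in Prx1Cre 42 (95% Wilson interval 0.189% to 0.195%, counting error only), 3.51% to 6.504% in each of the 6 remaining osteosarcomas and 0.0886% to 0.524% in the 25 other libraries.

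Control tissue transcripts were read beside this. The 342 transcripts of at least 100 bases that the same choice gives for the controls held 6.46% of the reads in Prx1Cre 42 (95% Wilson interval 6.45% to 6.48%), 7.40% in Col1Cre 26 (7.39% to 7.42%) and 0.54% to 1.32% in the other 5 osteosarcomas, compared with 14.7% to 16.9% in the controls. The clear cell sarcomas held 0.226% to 7.84% and the synovial sarcomas 0.776% to 5.90%. The part of these transcripts in the low values of Prx1Cre 42 was not tested.

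**Figure D4:**
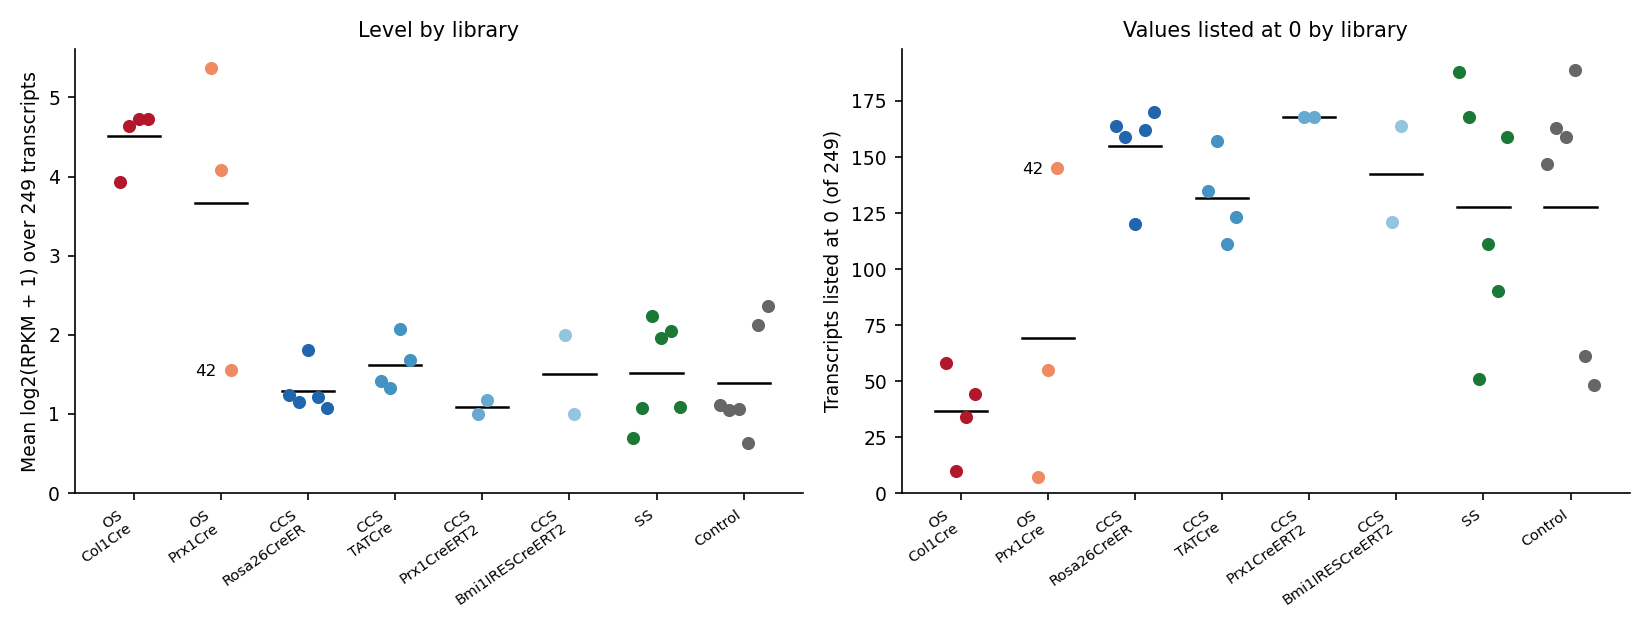
Points are libraries in 8 groups (OS osteosarcoma, CCS clear cell sarcoma, SS synovial sarcoma), with bars at group means. The left panel plots the mean log2(RPKM + 1) over the 249 transcripts and the right panel how many of the 249 were listed at 0. Prx1Cre 42 is labelled, with a mean of 1.55 and 145 transcripts at 0, apart from the other 6 osteosarcomas at 3.94 to 5.37 and 7 to 58.

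The osteosarcomas also differed among themselves apart from Prx1Cre 42. Prx1Cre 28 was the highest of the 7 for 65 transcripts and Col1Cre 31 for 64, followed by Prx1Cre 38 (44), Col1Cre 27 (27), Col1Cre 22 (23), Col1Cre 26 (16) and Prx1Cre 42 (10). Among the 8259 other transcripts with an osteosarcoma median of at least 5 RPKM, Prx1Cre 28 was highest for 14.8% and Col1Cre 31 for 7.54%, where the 249 gave 26.1% and 25.7%. The shares went the other way for Prx1Cre 38, highest for 24.5% of the others and 17.7% of the 249, and for Prx1Cre 42, with 16% and 4.02%. For the 3 remaining Col1Cre libraries they were 11.3% to 13.9% of the others and 6.43% to 10.8% of the 249. A fall of more than 2 log2 units below the osteosarcoma median occurred for 192 transcripts in Prx1Cre 42, 76 in Col1Cre 22, 68 in Prx1Cre 38 and 45 in Col1Cre 31. It occurred for 36 in Col1Cre 27, 23 in Col1Cre 26 and 9 in Prx1Cre 28. Among the 8259 others such a fall was also most frequent in Prx1Cre 42 (12.1%) and Prx1Cre 38 (11%), and it was at 1.07% to 2.83% in the other 5 libraries. Since the choice used only the median, up to 3 of the 7 libraries could be at 0, and 55 transcripts had exactly 3 at 0, 63 had 2, 62 had 1 and 69 had none.

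Pearson's r of log2(RPKM + 1) over the 249 transcripts, a description since transcripts are no replicates, was highest between Prx1Cre 28 and Col1Cre 26 (0.829). Between the other pairs that leave out Prx1Cre 42 it was 0.374 to 0.632, and with Prx1Cre 42 it was 0.149 to 0.307. Over the 7 osteosarcomas the median r between 2 of the 249 transcripts was 0.368, and it was 0.0634 over the 6 without Prx1Cre 42; among the 8259 others it was 0.046 and 0.0323. Likewise, 35 of the other 248 transcripts had r above 0.9 with uc008nwt.1 over the 7 libraries, and 2 had over the 6. For uc008sch.2 the numbers were 22 and 1, for uc007ush.1 13 and 2, and for uc012ael.1 10 and 8.

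The Prx1Cre tumours were then compared with the Col1Cre tumours. The choice of transcripts did not use the Cre, but it used the median of these same 7 libraries. It allows all 3 Prx1Cre libraries to be at 0 and not all 4 Col1Cre libraries, though neither case occurred among the 249, so it bears on the sign of the difference and the counts by sign are a description. By limma on log2(RPKM + 1) over 12623 transcripts, with Benjamini-Hochberg adjustment, 0 of the 249 differed (percent called among all tested: 0), and the smallest adjusted p among the 249 was 0.977. At an unadjusted p under 0.05 there were 15 of the 249 (6.02%), against 4.52% of all tested. The median difference, Prx1Cre minus Col1Cre, was -0.82 over the 249, with 180 lower and 69 higher, and -0.23 over all tested transcripts. All 4 Col1Cre libraries were above all 3 Prx1Cre libraries for 2 of the 249 (4.77% of all tested), and the reverse held for 1 (0.602%).

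The median difference turned its sign without 1 library. Without Prx1Cre 42 the median difference over the 249 was 0.15, with 132 higher and 117 lower in Prx1Cre, against -0.19 over all tested, and limma called 0 of the 249 and 0% of all tested, with 13 of the 249 (5.22%) and 4.83% of all tested at an unadjusted p under 0.05. Without Prx1Cre 28 the median difference was -1.57 and 6 of the 249 were called, all lower in Prx1Cre, among 16 called in all (0.132%). Taken alone against the median of the Col1Cre libraries, Prx1Cre 28 was higher for 170 of the 249 (median difference 0.49), Prx1Cre 38 for 112 (-0.57) and Prx1Cre 42 for 34 (-3.48). Prx1Cre 42 lay below all 4 Col1Cre libraries for 122 transcripts (49%), Prx1Cre 38 for 47 (18.9%) and Prx1Cre 28 for 11 (4.42%), and among all 12623 tested transcripts the shares were 37.2%, 36.8% and 28.7%.

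**Figure D5:**
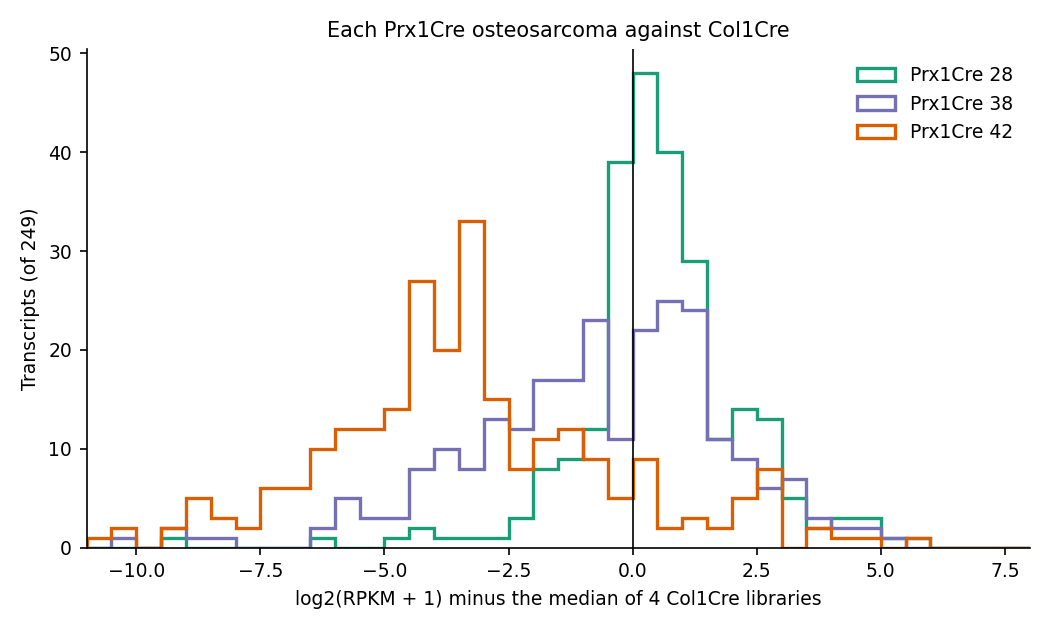
For each of the 3 Prx1Cre osteosarcomas, the histogram counts the 249 transcripts by their log2(RPKM + 1) minus the median of the 4 Col1Cre libraries. Prx1Cre 28 centres just above 0 (median 0.49), Prx1Cre 38 is wide around -0.57, and Prx1Cre 42 is shifted to -3.48.

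No single Prx1Cre against Col1Cre difference passed the adjustment over all tested transcripts. With 3 libraries against 4, a lack of calls does not show that the groups are alike. The lowest among those of at least 100 bases was that of uc007ush.1, at -3.57 (SE 1.18, limma unadjusted p = 0.0166 and adjusted p = 0.977), with all 3 Prx1Cre libraries below all 4 Col1Cre libraries. Without Prx1Cre 42 it was -2.01 (SE 0.66, limma unadjusted p = 0.0186 and adjusted p = 0.878). The difference of uc008nwt.1 was -3.16 (SE 2.04, limma adjusted p = 0.977) and moved to -0.17 (SE 0.56) without Prx1Cre 42. Both transcripts were picked for the most negative differences in these same libraries, so their p-values are a description. The transcripts uc008sch.2 and uc012ael.1 had differences of -1.17 (SE 0.74) and -1.65 (SE 0.79), which also missed the threshold (limma adjusted p = 0.977 for each).

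The remaining classes were compared with each other at the 236 of the 249 transcripts that passed the filter of the fit over all libraries (at least 1 RPKM in at least 6 of 32). The choice bounds their medians from above in each of these classes but does not set an order between them. Of the 236, 102 passed the filter only with the osteosarcomas, the class chosen to be high, and 134 passed it in the 25 other libraries. The counts over the 236 therefore include transcripts with few values in the classes compared, and nothing is read from their share against that of all tested transcripts. Clear cell sarcoma differed from the controls at 19 of the 236 (8.05%), 17 higher and 2 lower, by limma with Benjamini-Hochberg adjustment, where 51% of all tested transcripts were called (34.9% higher, 16.2% lower). At an unadjusted p under 0.05 there were 31 of the 236, and 56.4% of all tested. With median ratio scaling the split was 7 higher and 7 lower (49.2% of all tested called), and with quantile normalization 10 and 6 (49.5%). Fitted without the osteosarcomas, 29 of the 134 (21.6%) were called, 27 of them higher in clear cell sarcoma, against 55.3% of all tested. With libraries of 1 title number averaged within TATCre and synovial sarcoma, 20 were called (52.6% of all tested), and 15 when Bone3 and Chest3 were averaged too (49.3%).

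A transcript of 286 bases led these calls. It had 2.16 to 28.4 RPKM in clear cell sarcoma (median 13.1, n = 13), and was at most 0.688 in the controls (median listed at 0, n = 6), beside a median of 209 in osteosarcoma. Its difference was 3.35 (SE 0.42, limma adjusted p = 1.95e-07). A transcript of 658 bases had 102 to 311 RPKM in clear cell sarcoma (median 162) and 16.9 to 52.0 in the controls (median 32.6), with a median of 687 in osteosarcoma (difference 2.37, SE 0.39, limma adjusted p = 1.22e-05). In both transcripts all 13 clear cell sarcomas lay above all 6 controls. The share of all tested transcripts so separated was not counted, so nothing is read from this. Among the other calls, a transcript of 2605 bases had medians of 10.8 RPKM in the clear cell tumours and 1.02 in control tissue, beside 47.4 in osteosarcoma (difference 2.31, SE 0.65, limma adjusted p = 0.00369). The pair of lower calls were a transcript of 3157 bases (difference -0.72, SE 0.18, limma adjusted p = 0.00166) and one of 132 bases. The transcript of 3157 bases had at most 0.818 RPKM in clear cell sarcoma and 0.395 to 1.51 in the controls. Neither reached the filter level of 1 RPKM in any clear cell sarcoma, so both calls rest on low values. The transcript of 132 bases was listed at 0 in all 13 clear cell sarcomas. It had 0 to 8.20 RPKM in the controls (median 1.42), so the groups overlapped at 0. Transcript uc007ush.1 was higher in clear cell sarcoma as well, with a median of 5.69 RPKM against 0.812 (difference 1.98, SE 0.75, limma adjusted p = 0.0292), a call that was lost under median ratio scaling (limma adjusted p = 0.0569) and with Bone3 and Chest3 averaged as well (limma adjusted p = 0.0717).

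Synovial sarcoma differed from the same controls at 7 of the 236 (2.97%), 5 higher and 2 lower, where 43.2% of all tested transcripts were called by limma (36.5% higher, 6.67% lower). Fitted without the osteosarcomas, 16 of 134 (11.9%) were called, 11 higher and 5 lower, against 48.7% of all tested. Under median ratio scaling the split turned to 1 higher and 6 lower (32.6% of all tested called), and under quantile normalization to 1 and 8 (34%). The transcript of 286 bases had 3.45 to 15.2 RPKM in synovial sarcoma (median 13.3, n = 6), above all 6 controls (difference 3.28, SE 0.49, limma adjusted p = 4.31e-06). Transcript uc008sch.2 was lower in synovial sarcoma than in the controls, without overlap between the groups (difference -1.47, SE 0.52, limma adjusted p = 0.0226). Here too the share of all tested transcripts without overlap was not counted. A transcript of 2675 bases, with a median of 1169 RPKM in osteosarcoma, had 0.822 to 44.3 in synovial sarcoma (median 1.88) and 20.99 to 176 in the controls (median 58.2), a difference of -3.52 (SE 1.24, limma adjusted p = 0.022). When libraries of 1 title number were averaged, the differences of uc008sch.2 and of this transcript were -1.36 and -2.79 and missed the threshold (limma adjusted p = 0.117 and 0.187). In all, 2 of the 235 that passed the filter were then called, against 28.7% of all tested transcripts. With Bone3 and Chest3 averaged too, 2 of 235 were called (25.6%).

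Clear cell and synovial sarcoma differed at 3 of the 236 (1.27%), all higher in clear cell sarcoma, where 22.3% of all tested transcripts were called by limma (5.67% higher, 16.7% lower). Quantile normalization gave 8, all higher (20.5%), and the fit without the osteosarcomas 14 of 134 (10.4%), 11 higher and 3 lower, against 27.9% of all tested. One of the 3 was uc008sch.2 (difference 1.55, SE 0.44, limma adjusted p = 0.0111), and with the title numbers averaged its difference was 1.53 (limma adjusted p = 0.122). Limma then called 0 of the 235 that passed the filter and 7.61% of all tested transcripts. At an unadjusted p under 0.05 there were 9 of the 235 and 22.4% of all tested. Another was a transcript of 2516 bases, with medians of 82.8 RPKM in clear cell and 10.8 in synovial sarcoma beside 802 in osteosarcoma (difference 2.59, SE 0.74, limma adjusted p = 0.0113). Without Prx1Cre 42 in the fit, 28 transcripts differed between clear cell sarcoma and the controls (52.5% of all tested), 12 between synovial sarcoma and the controls (45%) and 12 between clear cell and synovial sarcoma (24.7%). That alternative, and the averaging of Bone3 with Chest3, were added after the data were seen.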

How the data were processed

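RNA of the 32 mouse samples was extracted by Qiagen RNeasy kit including DNase treatment and sequenced as Illumina TruSeq libraries, per the labels' protocols. CASAVA 1.8.2, Novoalign 2.07.03 and the build mm9 are named in the submitters' processing notes, while the counting program is not stated there. The authors deposited RPKM values per UCSC transcript, 1 column per library, matched here by title. The reference tables at hand are of another build and hold no UCSC identifiers, so no gene name, coordinate or sequence is given, and the deposited human array table was not used. Where transcripts of 1 locus overlap, reads could be split or shared, so 249 transcripts need not be 249 genes.

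Whole reads and lengths were recovered from the RPKM steps for 16780 transcripts, all 249 and all tested ones among them, with 100% of their values within 0.05 of a whole read. Recovery and tests were also run on simulated data, with the outcomes not reported here. Tests used limma 3.58.1 (trend, two-sided) on log2(RPKM + 1), which understates changes of low transcripts, with Benjamini-Hochberg adjustment over all tested transcripts and a threshold of 0.05: the 7 osteosarcomas with at least 1 RPKM in at least 3, and all 32 libraries in 4 classes with at least 1 RPKM in at least 6. RPKM carry no count model, so no count test was run.

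The members, lists and tests were chosen with earlier results of these data known. The 4 printed identifiers are, among transcripts of at least 100 bases, the 2 with the largest ratio to the next class and full separation, and the 2 with the most negative Prx1Cre minus Col1Cre difference. The planned gene and marker lists could not be applied without gene names. Transcripts named by length were chosen after their values were seen. Alternatives were the pseudocount, the filter, the scaling, the libraries fitted, a length minimum, averaged libraries and each osteosarcoma left out.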

Additional observations from a re-analysis of the deposited data

Results flagged for a closer look

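Of 30 groups of 4 to 10 libraries examined, 7 had a library whose gap to its nearest neighbour was large for the range of the group. Chance flags about 1 in 20, a rate that cannot hold where all but 1 value is 0 or where groups share libraries. The choice also used the osteosarcoma values, so nothing is read from the number of flags. For the mean log2(RPKM + 1) of the 249 transcripts these were Prx1Cre 42 among the 7 osteosarcomas (1.55, others 3.94 to 5.37), Col1Cre 22 among the 4 Col1Cre tumours (3.94, others 4.64 to 4.73) and Rosa26CreER 3 among the 5 Rosa26CreER tumours (1.81, others 1.08 to 1.23). TATCre N178-Lleg stood above the other 3 TATCre tumours for uc008sch.2 (9.36 RPKM, others 1.87 to 2.53) and for uc008nwt.1 (44.4 RPKM, others 3.10 to 6.95). For uc012ael.1, the synovial sarcoma 39-9 (0.0729 RPKM) and the clear cell sarcoma TATCre N123-RLN (0.0836 RPKM) were the only libraries of their groups not listed at 0, with 1 read each.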

How the results depend on the processing

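The Prx1Cre against Col1Cre comparison called 0 of the 249 transcripts, and 4 when all 32 libraries shared 1 fit, where 62 of all tested were called. With each osteosarcoma left out in turn, 0 to 6 of the 249 and 0 to 16 of all tested were called. Fitted without the osteosarcomas, 134 of the 249 were tested. Of these, 29 were called between clear cell sarcoma and the controls (55.3% of all tested) and 16 between synovial sarcoma and the controls (48.7%). Between clear cell and synovial sarcoma 14 were called (27.9%). Without Prx1Cre 42, an alternative added after the data were seen, the comparisons of synovial sarcoma with the controls and with clear cell sarcoma held 12 (45%) and 12 (24.7%). Averaging of libraries with 1 title number gave 2 (28.7%) and 0 (7.61%) for them. With Bone3 and Chest3 averaged too, added after the data were seen, it gave 2 (25.6%) and 0 (7.61%). Quantile normalization gave 8 between clear cell and synovial sarcoma (20.5%). The cause of these moves was not tested. The call of the 658-base transcript in synovial sarcoma against the controls was lost under median ratio scaling (adjusted p = 0.287) and quantile normalization (0.128). The choice itself gave 217 to 330 transcripts with 1 osteosarcoma left out, the latter without Prx1Cre 42 (232 shared with the 249), 252 with median ratio scaling (233 shared), 259 with quantile normalization (227 shared) and 357 with class means (158 shared). No paired analysis was possible because the Prx1Cre and Col1Cre titles share no number, and the other classes carry none that pairs them. Low reads limit the 87 transcripts under 20 reads in osteosarcoma, though values of 0 were not confined to low reads. In the 6 osteosarcomas other than Prx1Cre 42, 16.8% of values were at 0 where under 10 reads were expected. The share was 27.2% where 10 to 20 were expected and 21.7% where 20 to 50 were. It fell to 7.92% where 50 to 100 were expected and 1.43% at 100 or more.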

Other observations

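Some libraries outside osteosarcoma listed far fewer of the 249 transcripts at 0 than their neighbours. Chest1 and Chest2 listed 61 and 48 at 0, where the other 4 controls listed 147 to 189, and the synovial sarcomas ranged from 51 in 37-8 to 188 in 37-4. Depth was 10.2 and 10.7 M reads in Chest1 and Chest2 and 9.18 to 12.05 M in the other controls. At the 92 transcripts with at least 100 reads in osteosarcoma, Chest1 and Chest2 had means of 2.61 and 2.65 log2(RPKM + 1), and the other controls 1.73 to 2.41. The library outside osteosarcoma with the most transcripts at or above their osteosarcoma median was the synovial sarcoma 39-9, with 25 of 249, followed by the clear cell sarcoma Bmi1IRESCreERT2 1, with 21. At the 92 better read transcripts the synovial sarcoma 39-9 had 0 such transcripts and Bmi1IRESCreERT2 1 had 0, while TATCre N178-Lleg had 4 and Prx1CreERT2 4 had 3.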
